A study of Mus musculus with 2 samples.

Results

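Divergent promoters of protein-coding gene pairs were described in cortical tissue from the left cerebral hemisphere of male mice of the strain B6CASTF1/J. A pair was 2 autosomal protein-coding genes on opposite strands, the minus-strand gene on the left, whose 5'-most annotated starts lay 0 to 1000 bp apart. The region of a pair ran from one start to the other and was widened by 250 bp on each side. The rule used the gene annotation and no measured value. It found 735 pairs holding 1450 of the 20807 autosomal coding genes (6.97%), and 40 of these pairs shared a start with another pair. They were set beside 17487 lone promoters, 250 bp on each side of the start of a coding gene with no coding start on the opposite strand within 5 kb.

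These F1 hybrids of laboratory and wild-derived (castaneus) parents were 8 to 10 months old and received no treatment that the labels name. The assay was DNase-seq, which sequences the ends left where the enzyme DNase I cleaves open chromatin. The 2 libraries were labelled biological replicates 1 and 2 and formed 1 group. Both carried the same donor identifier with different biosamples, so if that is 1 animal the spread leaves out variation between animals. The stricter deposited peak list, called narrow peaks here, had 40705 entries in replicate 1 and 39508 in replicate 2, beside a broader list of 71210 and 72217, and 166128 and 174394 footprints. A footprint is a few bases inside open DNA that DNase I rarely cleaved. Read totals were not used here, so the depth is unknown. Of 10 cortex markers, 5 (Map2, Snap25, Syt1, Gfap and Camk2a) had a narrow peak in both libraries at an annotated start. Of 10 markers of other organs, 1 (Actn2) did. The neuronal markers Gad1, Slc17a7 and Rbfox3 and the glial markers Aqp4 and Mbp had none. Over all autosomal coding genes the share was 47.1%, counted within 250 bp of the 5'-most start alone. The count of cortex markers was thus near that of all genes.

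Divergent promoters place the start sites of both genes back to back, so that 1 nucleosome-depleted stretch can serve transcription in both directions. In mammals they are known to be rich in CpG dinucleotides and poor in TATA boxes, and to be common among genes that most cells use, such as those of DNA repair and mitochondria. Ordinary promoters can also produce short divergent noncoding transcripts, so the coding pairs are the case in which both directions yield a messenger RNA.

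The sequence between the starts is shown for 7 pairs with strong peaks, because this is the stretch that both genes share. Each is the plus strand of mm10 (GRCm38.p6), 5′ to 3′, beginning 1 base after the minus-strand gene's start. Capitals mark bases inside a footprint in both libraries.
Cdc27 and Myl4 (chr11:104550621-104550662): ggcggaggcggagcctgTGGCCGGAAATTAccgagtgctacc
Tepsin and Ndufaf8 (chr11:120098732-120098927): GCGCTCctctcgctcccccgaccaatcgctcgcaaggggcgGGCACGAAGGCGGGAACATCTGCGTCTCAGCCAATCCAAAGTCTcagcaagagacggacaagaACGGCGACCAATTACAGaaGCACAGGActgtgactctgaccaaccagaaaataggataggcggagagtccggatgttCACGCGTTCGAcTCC
Fbh1 and Ankrd16 (chr2:11777583-11777875): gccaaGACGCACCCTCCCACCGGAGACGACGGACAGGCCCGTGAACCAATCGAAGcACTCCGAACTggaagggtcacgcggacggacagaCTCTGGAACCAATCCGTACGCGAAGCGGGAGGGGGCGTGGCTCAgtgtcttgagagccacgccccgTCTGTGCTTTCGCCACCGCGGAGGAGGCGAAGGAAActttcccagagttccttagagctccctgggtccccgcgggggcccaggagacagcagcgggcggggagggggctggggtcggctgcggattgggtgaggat
Rer1 and Morn1 (chr4:155086383-155086576): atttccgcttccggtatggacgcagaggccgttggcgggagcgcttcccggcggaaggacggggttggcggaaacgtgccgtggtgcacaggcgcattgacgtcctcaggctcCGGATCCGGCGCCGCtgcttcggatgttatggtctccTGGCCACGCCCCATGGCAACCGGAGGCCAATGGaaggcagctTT
Med22 and Rpl7a (chr2:26910678-26910763): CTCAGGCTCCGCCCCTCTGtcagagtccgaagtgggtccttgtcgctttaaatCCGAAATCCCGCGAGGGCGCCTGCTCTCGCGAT
Ccnb1ip1 and Parp2 (chr14:50807733-50807840): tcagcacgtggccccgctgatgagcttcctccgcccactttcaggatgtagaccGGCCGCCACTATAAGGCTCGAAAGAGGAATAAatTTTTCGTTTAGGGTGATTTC
Dnajb4 and Fubp1 (chr3:152210303-152210421): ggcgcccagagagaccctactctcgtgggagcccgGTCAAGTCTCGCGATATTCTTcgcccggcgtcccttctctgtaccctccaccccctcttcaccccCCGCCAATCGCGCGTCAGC
Cdc27, a subunit of the anaphase-promoting complex, and Myl4, a myosin light chain of muscle, were separated by 42 bases, of which 13 lay under footprints of both libraries. Between Tepsin, a partner of the AP-4 coat adaptor, and Ndufaf8, an assembly factor of respiratory complex I, 89 of 196 bases did. Between the DNA helicase Fbh1 and Ankrd16 it was 140 of 293 bases, the most among the 7.

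Consensus letters were searched in these stretches on both strands, and positions count from 1 at the left end. A match counted as under a footprint where its central base lay inside one, so its edges can differ from that call. The Tepsin and Ndufaf8 stretch held CCAAT, the letters read by the factor NF-Y, at bases 22 to 26, 72 to 76 and 112 to 116, and the last 2 copies lay under footprints in both libraries. In the Fbh1 and Ankrd16 stretch the copies at bases 46 to 50 and 99 to 103 lay under footprints in both, and the reverse-strand copy at 281 to 285 did not in either. The Rer1 and Morn1 stretch held CCAAT at bases 177 to 181 and, on the reverse strand, the RFX letters GTTGCCATG at 162 to 170, both under footprints in each library. Its ETS letters at bases 8 to 14 and TGACGT at 98 to 103 were under none in either. Rer1 retrieves membrane proteins to the endoplasmic reticulum. Med22, of the Mediator complex, and Rpl7a, of the large ribosomal subunit, shared the GC box GGGCGG on the reverse strand at bases 9 to 14, under footprints in both libraries. Dnajb4, an Hsp40 cochaperone, and Fubp1, a single-stranded DNA binding protein, shared CCAAT at bases 104 to 108, also footprinted in both. The GC box between Tepsin and Ndufaf8 (bases 37 to 42) was under a footprint by this rule in replicate 2 only, although its last base is a capital. The GC box between Fbh1 and Ankrd16 (251 to 256) was under a footprint in neither. Between Ccnb1ip1 and Parp2, CACGTG at bases 5 to 10 was under a footprint in replicate 2 only and the GC box at 31 to 36 in neither. Over the 501 bp windows of paired starts with a narrow peak in both libraries, 17.6% and 18.5% of CCAAT matches lay under footprints. The copies shown, from strong pairs, thus do not describe pairs in general. A match describes the letters and shows no bound factor.

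Nearly all pairs were accessible. A narrow peak overlapped 677 of 735 pair regions in replicate 1 (92.1%, 95% Wilson interval 89.9 to 93.8) and 679 in replicate 2 (92.4%, 90.2 to 94.1), a mean of 92.2 ± 0.192% (SD, n = 2 libraries). Over all autosomal coding starts the background was 49.1% in replicate 1 and 49.4% in replicate 2. Lone promoters had a narrow peak in 44.5% and 44.8%, a mean of 44.6 ± 0.198% (SD, n = 2 libraries). The difference, 47.6 percentage points in each library, was far larger than the spread between the libraries. Intervals cover counting error only, and with 1 group of 2 libraries no p-value was computed.

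Both libraries marked the same pairs. In 672 pairs (91.4%, Wilson interval 89.2 to 93.2) a narrow peak was present in both libraries, beside 42.4% of lone promoters and a background of 47.1% of all coding starts. The broader list overlapped 93.6% and 93.7% of pairs, beside 50.1% and 50.7% of lone promoters and 54.4% and 54.9% of all coding starts. It did so in both libraries at 684 pairs (93.1%), beside 48.2% of lone promoters and 52.5% of all coding starts. Counting each start alone in a window of the lone promoters' width, 90.2 ± 0.244% of the 1450 paired starts had a narrow peak (SD, n = 2 libraries). Pair regions took up 836 (2.05%) and 856 (2.17%) of all narrow peaks.

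CpG content moved with pairing. Pair starts had a median of 7.78 CpG per 100 bp and a median GC content of 62.7%, and lone starts 3.99 CpG per 100 bp and 56.5% GC. When all coding starts were cut into terciles by CpG content, 415 pairs (56.5%) fell in the highest, 301 (41.0%) in the middle and 19 (2.59%) in the lowest tercile, against 31.5%, 33.0% and 35.5% of lone promoters. Within the highest tercile, 97.3% of pairs had a narrow peak in each library and 83.5% of lone promoters did, a difference of 13.8 ± 0.0128 points (SD, n = 2 libraries). Within the middle tercile the shares were 90.4% and 91.0% of pairs and 52.2% and 53.1% of lone promoters, a difference of 38.0 ± 0.168 points. In the lowest tercile 1 of 19 pairs had a peak, 5.26%, beside 2.70% and 2.67% of lone promoters. The gap between pairs and lone promoters thus persisted in the upper terciles at a smaller size, and the part of CpG content in it was not tested beyond these values.

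Lone promoters that had a noncoding start on the opposite strand 0 to 1000 bp upstream lay between the classes. Of these 738 promoters, 77.0% and 78.0% had a narrow peak, which is 14.7 percentage points below the coding pairs on average.

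**Figure D1:**
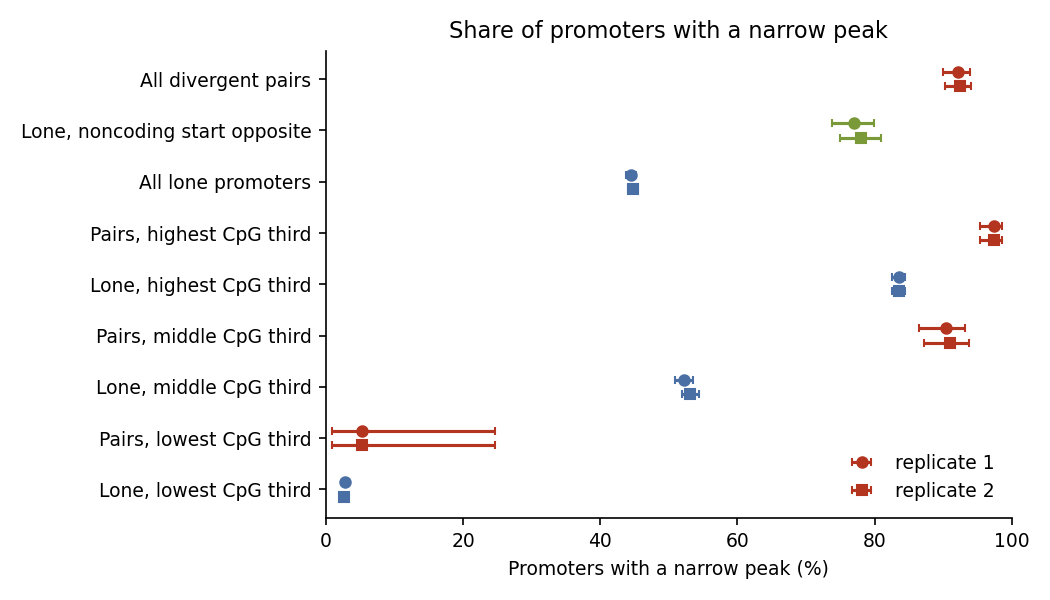
Share of promoters with a narrow peak (x axis, percent) in each library (circles, replicate 1; squares, replicate 2) with 95% Wilson intervals, for divergent pairs (red), lone promoters with an opposite noncoding start (green) and lone promoters (blue), in all and by CpG tercile. Pairs lie at 92.1% and 92.4%, lone promoters at 44.5% and 44.8%, and the classes come closer in the highest CpG tercile.

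Peaks at pairs were also stronger. The strength of a promoter is the deposited signal value of its strongest narrow peak, whose scaling is not given in the sources used here. At pairs with a peak the median was 3.77 in replicate 1 and 3.07 in replicate 2, against 2.56 and 2.23 at lone promoters, a ratio of 1.43 ± 0.0682 (SD, n = 2 libraries). The pairs lacked weak peaks more than they had extreme ones. Their 10th percentile was 1.94 and 1.76, against 0.929 and 0.926 at lone promoters, while their 90th percentile was 5.78 and 4.82, against 4.98 and 4.15. The ratio of medians was 1.29 ± 0.0387 in the highest CpG tercile and 1.61 ± 0.130 in the middle one (SD, n = 2 libraries). Lone promoters with an opposite noncoding start had medians of 2.97 and 2.50, between the other classes in both libraries. The strongest peak of a pair had a median width of 280 bp in replicate 1 and 300 bp in replicate 2, against 260 and 280 bp at lone promoters.

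Over the 672 pairs with a peak in both libraries, log2 strength in the libraries had a Pearson correlation of 0.908 and a Spearman correlation of 0.893. These pairs share 1 genome and 1 tissue, so the correlation describes agreement of the libraries only. Strength was higher in replicate 1 at 80.1% of pairs, with a median ratio of 1.18, beside 72.3% and 1.12 at lone promoters. No pair differed by more than 2-fold between the libraries, and 20 of 7418 lone promoters did.

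**Figure D2:**
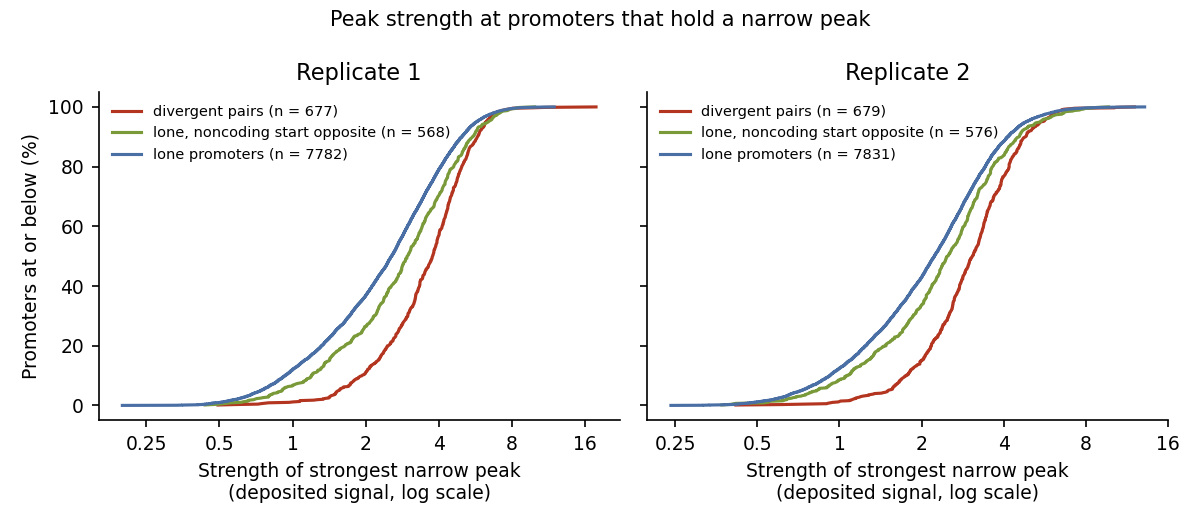
Cumulative share of promoters (y axis, percent) by the strength of their strongest narrow peak (x axis, deposited signal, log scale) in each library, for divergent pairs (red), lone promoters with an opposite noncoding start (green) and all lone promoters (blue), each with a peak in that library. The pair curve lies to the right of the lone curve over most of its length, with medians of 3.77 and 3.07 against 2.56 and 2.23.

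The strongest pair was Hjurp and Trpm8, whose starts lay 28 bp apart. Hjurp is the chaperone of the centromeric histone CENP-A and Trpm8 is the cold-sensing ion channel of sensory neurons. Its strength was 17.8 in replicate 1 and 12.1 in replicate 2. The next were Cdc27 and Myl4 with 11.1 and 10.4, and Tepsin and Ndufaf8 with 9.74 and 10.2. These 3 stood apart, since the remaining 7 of the 10 highest by the lower library ranged down to 6.23 in that library and the pair just outside, Fbxo38 and Spink10, had 6.73 and 6.18.

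Several of the remaining 7 pair widely used genes. Rer1 and Morn1 had strengths of 8.00 and 6.56, and Med22 and Rpl7a had 7.18 and 6.52. Hnrnpa2b1, an RNA-binding protein, and Cbx3, a heterochromatin protein of the HP1 family, had 7.53 and 7.05 over starts 466 bp apart, a known ubiquitously open CpG island. Ccnb1ip1, which acts in meiotic crossing over, and Parp2, a poly(ADP-ribose) polymerase of DNA repair, had 6.95 and 6.52. Fbh1 and Ankrd16 had 7.44 and 7.30, and Dnajb4 and Fubp1 had 6.61 and 6.23.

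Known divergent pairs were open about as often as pairs in general. Of 22 pairs listed from textbooks, 10 met the distance and strand rule in this annotation, and 9 of those had a narrow peak in both libraries, beside 672 of all 735 pairs (91.4%). Atm, the kinase that senses DNA breaks, and Npat, which activates histone genes, had strengths of 6.56 and 5.16. Mcm4, of the replicative helicase, and Prkdc, the DNA-dependent protein kinase, had 5.96 and 4.70. The vascular gene Pdcd10 and Serpini1, which encodes the neuronal inhibitor neuroserpin, had 6.11 and 4.18 over 691 bp.

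The lower end of these pairs still lay above the lone medians. Psmb1, of the proteasome core, and Tbp, the TATA-binding protein, had 4.08 and 4.38. The mitochondrial ribosomal gene Mrps12 and the mitochondrial seryl-tRNA synthetase Sars2 had 4.75 and 4.03. Brca1 and the autophagy receptor Nbr1 had 3.90 and 3.67. The exception was Col4a4 and Col4a3, collagen chains of specialised basement membranes such as that of the kidney glomerulus, with starts 72 bp apart and no peak of either list in either library.

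**Figure D3:**
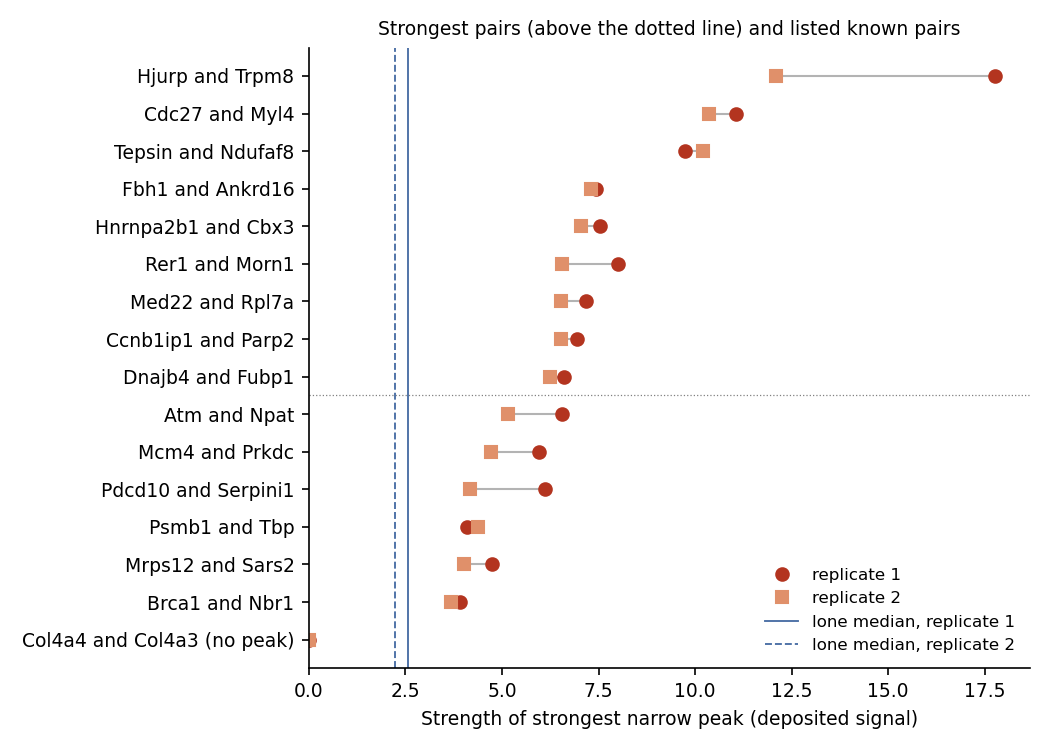
Strength of the strongest narrow peak (x axis, deposited signal) in replicate 1 (circles) and replicate 2 (squares) for 9 of the 10 strongest pairs and, below the dotted line, textbook pairs, with the medians of lone promoters as vertical lines. Every pair shown lies above both medians except Col4a4 and Col4a3, which had no peak and is drawn at 0.

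The distance between the starts was short. Its median was 128 bp (quartiles 66 and 240, range 0 to 987), and 603 pairs (82.0%) lay under 300 bp. Peaks were present in 96.0% and 98.4% of the 126 pairs 0 to 50 bp apart and in 79.4% of the 68 pairs 501 to 1000 bp apart in each library, with 91.5% to 95.8% in the bins from 51 to 500 bp. CpG content moved with distance too: pairs of the highest tercile made up 71.9% and 71.0% of those with a peak at 0 to 50 bp and 33.3% in each library at 501 to 1000 bp. Its part was not tested.

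Close starts mostly shared 1 peak and distant starts seldom did. A single narrow peak covered both starts in 427 of 677 pairs with a peak in replicate 1 (63.1%) and in 436 of 679 in replicate 2 (64.2%). The share was 90.9% and 90.3% at 0 to 50 bp, 66.7% and 65.0% at 101 to 200 bp, and 30.8% and 43.5% at 201 to 300 bp. It was 31.1% and 25% at 301 to 500 bp, and 0% and 9.26% at 501 to 1000 bp. Pairs with more than 1 narrow peak made up 9.92% and 10.5% at 0 to 50 bp and 64.8% and 61.1% at 501 to 1000 bp. The strongest peaks had median widths of 280 and 300 bp, which limits how often 1 peak can reach over distant starts. A peak of such width over 1 of 2 close starts will mostly cover the other too, so the trend partly follows from peak width. Median strength per start moved in no single direction with distance, at 3.36 and 2.83 at 0 to 50 bp, 4.14 and 3.29 at 301 to 500 bp, and 3.26 and 2.64 at 501 to 1000 bp.

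**Figure D4:**
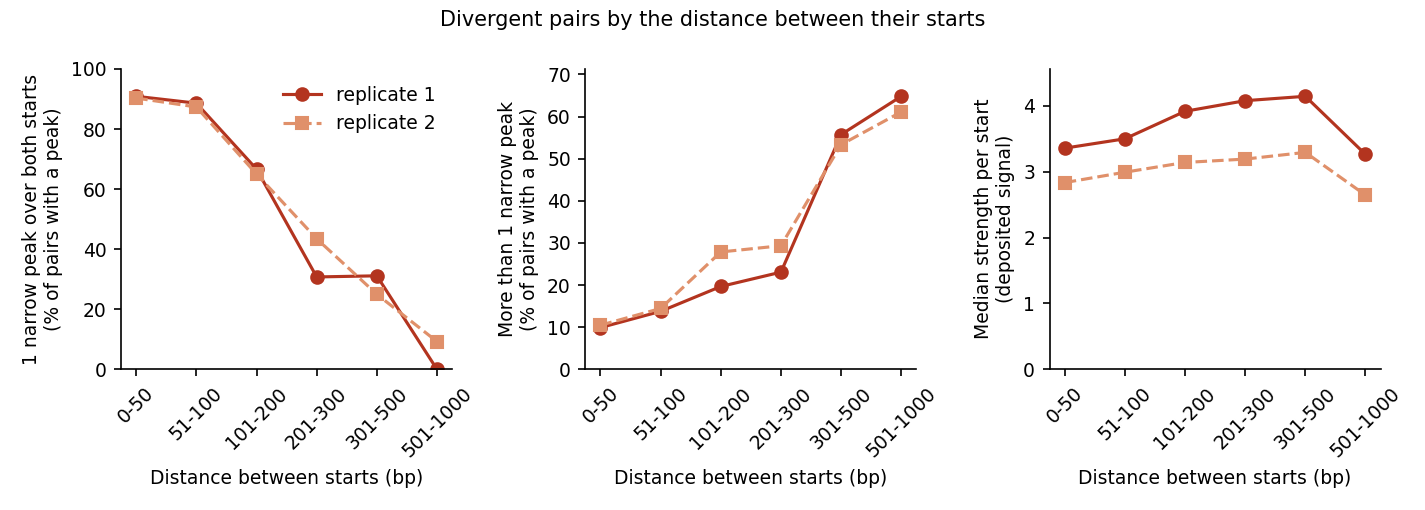
Pairs binned by the distance between their starts (x axis, bp) in replicate 1 (solid) and replicate 2 (dashed): the share with 1 narrow peak over both starts, the share with more than 1 narrow peak, and the median strength in 250 bp on each side of a start (deposited signal). One shared peak is found in 90.9% and 90.3% of pairs in the closest bin and in 0% and 9.26% in the widest.

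The 5 closest pairs had 1 peak over both starts in both libraries. They were Nsa2 and Gfm2, with starts 0 bp apart and strengths of 3.35 and 3.08, Bag4 and Lsm1 (1 bp apart), Slc7a6os and Prmt7 (1 bp), Dhrs1 and Nop9 (3 bp), and Bag5 and Apopt1 (4 bp). Nsa2 acts in ribosome assembly and Gfm2 in mitochondrial ribosome recycling, and Lsm1 acts in messenger RNA decay. Dhrs1 and Nop9 were the weakest of them, with 1.56 and 2.01.

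The most distant pairs mostly had several peaks. Btf3l4 and Txndc12, 987 bp apart, had 2 narrow peaks in replicate 1 and 3 in replicate 2. Asphd1 and Sez6l2, a brain-enriched membrane protein gene, 981 bp apart, had 4 and 3, and 1 of those in replicate 2 reached over both starts. Smim7 and Tmem38a had 3 and 2, and Zfyve26 and the recombination gene Rad51b had 2 and 2, with both starts under a peak in each library.

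The position of lowest false discovery rate lay between the starts at most pairs, spread over the whole stretch. The centre of the strongest peak fell between the starts at 57.3% and 50.4% of pairs with a peak. It lay a median of -0.5 bp (replicate 1) and -5.5 bp (replicate 2) from the midpoint of the pair, negative to the left, with median distances of 51 and 66 bp in either direction. The position with the lowest false discovery rate in the authors' table lay between the starts at 64.3% and 58.2% of pairs with a peak. Where several intervals tied for the lowest value, the median of their midpoints was taken, so the position can lie between them. Among the 390 pairs at least 100 bp apart the shares were 73.8% and 66.9%, spread over the segment nearest the minus start (82 and 87 pairs), the middle segment (96 and 79) and the segment nearest the plus start (107 and 95). The plus side held somewhat more in both libraries.

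Seen from single starts, the pairs were open further upstream and less far downstream than lone promoters. The position of lowest false discovery rate lay at a median of -52 and -50 bp from paired starts (upstream negative). From lone starts the medians were -23.6 and -16 bp. It was upstream at 81.5% and 78.9% of paired starts and at 63.3% and 58.1% of lone starts. The classes cannot be compared by these values. Both starts of a pair were measured to the same position, and any position lies upstream of the minus start, the plus start or both. The searched window also reached further upstream than downstream of a paired start, but equally far on both sides of a lone start. At promoters with a peak in both libraries, 28.1% and 35.8% of paired starts were under a narrow peak 300 bp upstream, against 15.7% and 19.9% of lone starts. At 300 bp downstream the shares were 12.3% and 16.7% of paired starts, against 22.5% and 26.9% of lone starts. The upstream side of one paired start is the downstream side of its partner, so the profile joins both promoters.

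**Figure D5:**
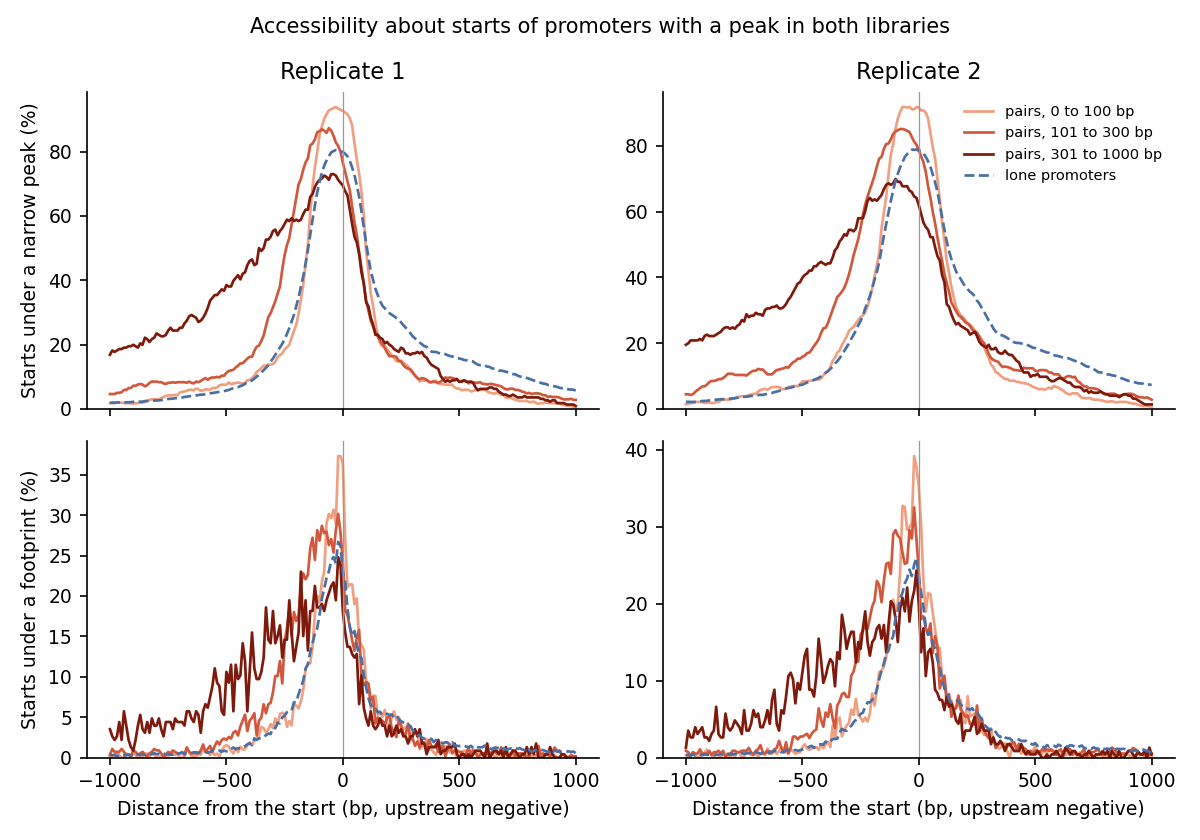
Share of starts (y axes, percent) under a narrow peak (top) and under a footprint (bottom) by distance from the start (x axis, bp, upstream negative), for pairs grouped by the distance between their starts and for lone promoters (dashed), all with a narrow peak in both libraries. The pair curves extend further upstream as the starts lie further apart and the pair curves for narrow peaks lie under the lone curve from 200 bp downstream.

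Not every start was itself covered. Both starts lay under a narrow peak in 473 (69.9%) and 471 (69.4%) of pairs with one, only 1 start in 24.2% and 23.4%, and neither in 40 (5.91%) and 49 (7.22%). Lone starts lay under their strongest peak in 76.3% and 74.0%. That value takes 1 start and 1 peak, while the pair values take both starts and any peak, so they are not alike. Counted per start and under any narrow peak, 82.3% and 81.4% of paired starts were covered, against 79.9% and 78.5% of lone starts. Those shares are over promoters with a narrow peak in both libraries.

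Footprints were dense between the starts. In pairs with a peak and starts at least 40 bp apart, the stretch between the starts held 15.0 and 15.2 footprints per kb, against 7.70 and 8.54 per kb in the 250 bp flanks of the same pairs, a ratio of 1.86 ± 0.125 (SD, n = 2 libraries). It also exceeded the 150 bp upstream of lone starts, with 14.1 and 13.6 per kb, by a ratio of 1.09 ± 0.0336. Those windows are unlike, since the stretches vary in length and have a start at each end. At pairs 100 to 200 bp apart, the 150 bp upstream of each start held 18.3 and 18.4 per kb, with partner windows overlapping. Lone promoters held 8.08 and 9.04 per kb in the 250 bp downstream, so they too were denser upstream. Between the starts, 71.2% and 70.6% of footprints overlapped one of the other library, against 60.1% and 54.7% in the flanks.

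Over whole regions the excess was small and depended on the window. Pair regions with a peak held 4600 and 4908 footprints, or 9.89 and 10.5 per kb, against 9.46 and 9.90 per kb at lone promoters, a ratio of 1.05 ± 0.0132 (SD, n = 2 libraries). The ratio was 1.204 in equal windows about each start, but 0.960 with flanks of 100 bp and 0.958 against lone promoters with an opposite noncoding start, where the direction was the opposite. It was 1.01 ± 0.0101 in the highest CpG tercile and 1.11 ± 0.0156 in the middle one. The direction over whole regions is thus not given as a result.

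Footprints were counted per pair and ranked by the library with fewer, with ties among the named pairs. The counts were not divided by the width of the region, whose median was 629 bp over all pairs. Nlgn2, a postsynaptic adhesion molecule of inhibitory synapses, and Tmem256 had 16 and 14. Ttc9c and Hnrnpul2 had 14 and 18, Zranb3, a DNA damage helicase, and R3hdm1 had 14 and 14, L3hypdh and Jkamp had 14 and 14, and Uqcrh, a subunit of respiratory complex III, and Lrrc41 had 15 and 13. Asphd1 and Sez6l2, with 13 and 16, tied with the last of these. The regions of all these pairs were 651 to 1482 bp wide, so wide regions can rank high by width alone. The median pair with a peak had 7 in each library, and 5 and 2 pairs with a peak had none.

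Sequence content differed from lone promoters in ways the pairing rule did not use. In windows of 501 bp about a start, searched on both strands, the ETS letters CCGGAAG occurred at 33.7% of paired starts and 12.6% of lone starts, with 14.8% of all coding starts holding them. In the highest CpG tercile the shares were 39.0% and 21.1%, and among starts with a narrow peak in both libraries 36.6% and 23.1%. The YY1 letters AAGATGGCG occurred at 7.38% of paired starts and 2.37% of lone starts (2.87% of all), and at 8.00% and 4.78% in the highest tercile. The palindrome TCTCGCGAG occurred at 3.45% of paired starts and 0.829% of lone starts (1.05% of all), and at 4.30% and 2.12% in the highest tercile. Partner windows overlap, so a match can count for both starts of a pair.

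For other letters the shares by CpG tercile were as follows. The GC box GGGCGG occurred at 1133 of 1450 paired starts (78.1%) and 8919 of 17487 lone starts (53.5% of all), but at 87.9% and 92.5% in the highest CpG tercile, the opposite direction. GCGCATGCG, read by NRF1, occurred at 5.72% and 2.19% (2.52% of all), and at 5.61% and 4.76% in that tercile. The CREB letters TGACGT occurred at 20.3% of paired starts and 10.1% of lone starts (10.9% of all), and at 22.8% and 15.5% in that tercile. They lie within TGACGTCA, which occurred at 4.90% and 2.55% (2.73% of all). CCAAT occurred at 51.3% of paired starts and 48.2% of lone starts (48.2% of all), at 46.8% and 38.8% in the highest tercile, and at 52.3% and 46.3% among starts with a narrow peak in both libraries.

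TATA letters were rare at pairs. TATAA lay 20 to 40 bp upstream on the sense strand at 8 of 1450 paired starts (0.552%), against 807 of 17487 lone starts (4.61%) and 4.10% of all coding starts. Among starts with a narrow peak in both libraries the shares were 0.309% and 1.32%. Of the 8 paired starts, 3 belonged to the 27 histone genes in pairs, a family known for TATA boxes.

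At some letters most matches were footprinted. Matches were taken over the whole 501 bp window of starts with a narrow peak in both libraries, so they need not lie under the peak. A match counted as footprinted where its central base lay inside a footprint. At paired starts this held for 86.3% and 85.0% of GCGCATGCG matches and for 35 and 38 of 40 TGACGTCA matches. At lone promoters the shares were 88.0% and 87.4% for the first and 75.3% and 76.1% for the second. For GGGCGG the shares were 38.2% and 37.7% at pairs and 31.9% and 30.6% at lone promoters, and for CCGGAAG 23.9% and 26.5%, and 21.1% and 22.1%. Footprinting of the ETS letters thus differed little between the classes although the letters were more frequent at pairs. The shares for CCAAT were 17.6% and 18.5% at pairs and 16.1% and 16.2% at lone promoters.

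By gene function, the lists with the highest share of members in pairs were histones and genes of general upkeep. Against 6.97% of all coding genes, pairs held 26 of 92 DNA repair and replication genes (28.3%), 22 of 91 oxidative phosphorylation genes (24.2%), 22 of 92 RNA polymerase and Mediator genes (23.9%), and 18 of 78 mitochondrial ribosome genes (23.1%). Chaperones had 13 of 82 (15.9%), proteasome genes 7 of 49 (14.3%), aminoacyl tRNA synthetases 5 of 37 (13.5%) and cytosolic ribosomal proteins 8 of 75 (10.7%). Zinc finger genes (26 of 455, 5.71%), solute carriers (17 of 358, 4.75%) and neuronal genes (3 of 72, 4.17%) were at or below the share of all genes. These shares come from the annotation and not from the libraries.

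Peaks at pairs of the upkeep lists are to be read beside the 91.4% of all pairs that had a narrow peak in both libraries. All 22 oxidative phosphorylation pairs, all 22 RNA polymerase and Mediator pairs and all 18 mitochondrial ribosome pairs had a narrow peak in both libraries, beside 41 of 52, 54 of 59 and 36 of 41 lone promoters of the same lists. DNA repair pairs had one in 24 of 27 (88.9%), beside 43 of 50 lone promoters. Among them Xpc, which recognises bulky DNA lesions, with Lsm3 had strengths of 5.89 and 5.96, and Lig4, the ligase of end joining, with Abhd13 had 5.21 and 5.97, while Rad51c with the germ-cell gene Tex14 had no peak. Solute carrier pairs had one in 15 of 16, beside 40.5% of lone solute carrier promoters, and Tmem pairs in 21 of 23, beside 49.7%. Cdk5, a kinase of neurons, with the anion exchanger Slc4a2 had 6.22 and 3.87, and the zinc transporter Slc39a7 with the nuclear receptor Rxrb had 5.20 and 3.97.

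In the remaining lists the pairs were not always ahead of the lone promoters. Proteasome pairs had a peak in both libraries in 7 of 7, beside 29 of 35 lone promoters, and chaperone pairs in 12 of 12, beside 34 of 50. Median strength at proteasome pairs was 2.99 and 2.34, against 3.27 and 2.74 at lone promoters. At chaperone pairs it was 4.23 and 3.25, against 3.86 and 3.38. The tRNA synthetase pairs had one in 5 of 5, beside 23 of 24 lone promoters, with median strengths of 2.99 and 2.48 at pairs against 3.30 and 2.75 at lone promoters. Ribosomal protein pairs had one in 7 of 8 (87.5%), beside 48 of 52 lone promoters (92.3%). Their median strengths were 3.43 and 3.97, against 4.35 and 3.52 at lone promoters. Rpl9 and Lias, the lipoic acid synthase, had 5.88 and 6.10, the chaperonin gene Cct5 and Fam173b had 6.15 and 5.84, and Klc4 with Mrpl2 had 6.64 and 5.38. The weakest chaperone pair was the deacetylase gene Sirt1 with Dnajc12, at 0.768 and 1.09. Zinc finger pairs had a peak in 21 of 23, beside 287 of 393 lone promoters, with medians of 3.36 and 2.81 against 2.44 and 2.07. Of these, Zfp654 and Cggbp1 had 6.32 and 5.13. Of 2 pairs matched as collagens, the open one, Polk and Col4a3bp (3.90 and 2.63), holds a lipid transfer protein gene that is no collagen.

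Histone pairs had the lowest median strength of the lists. Histone genes were often paired (27 of 80 genes, 33.8%), and 13 of the 14 pairs joined 2 histone genes. A narrow peak was present in both libraries in 10 of 14, with median strengths of 2.13 and 1.90, beside 25 of 33 lone histone promoters with 2.72 and 2.59. The pair Hist2h2ac and Hist2h2be had 2.73 and 2.83, and Hist1h2ba and Hist1h2aa, the testis variants, had no peak. Histone genes have near-identical copies, and how the authors treated reads that map to several places is not given in the sources used here, so absent peaks are uncertain.

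A narrow peak in both libraries was present at the 3 neuronal pairs, beside 91.4% of all pairs and 36 of 66 lone promoters of the same list (54.5%). Nlgn2 and Tmem256 had strengths of 4.597 and 3.602. Park7, whose product DJ-1 protects against oxidation, and the lymphocyte receptor gene Tnfrsf9 had 3.81 and 2.81. In both of these a gene of the neuronal list shares its promoter with a gene of another kind, and the peak does not show which of them is transcribed.

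Few pairs had no peak. No narrow peak was present in either library at 51 pairs, of which 18 lay in the lowest, 23 in the middle and 10 in the highest CpG tercile, and no peak of either list at 42. Of these 42, 18 lay in the lowest CpG tercile, 19 in the middle and 5 in the highest, while 19 of all 735 pairs lay in the lowest. The closest of them were Best1 and Rab3il1 (36 bp apart), Tradd and Fbxl8 (39 bp), Rnf151 and Rps2 (53 bp), 4930430F08Rik and 1700017N19Rik (61 bp), and Col4a4 and Col4a3 (72 bp). Others, chosen after their values were seen, include genes known from other organs, such as Duox2 and Duoxa2 of the thyroid and Kirrel2 and Nphs1 of the kidney filter. They also include genes of cells that the cortex holds, such as Aspa of oligodendrocytes with Spata22 and the endothelial gene Pecam1 with Milr1, and the widely used repair gene Xrcc1 with Pinlyp.

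Some of these genes were open at another start. In 15 of the 42, at least 1 gene had a narrow peak in both libraries at another of its annotated starts, among them the ubiquitously used Rps2 and Trim28, and in 27 neither gene did. Over the 51 pairs without a narrow peak the counts were 17 and 34. Of 9292 lone promoters without a narrow peak, 866 (9.32%) had one at another start. A pair counted if either gene had such a start, while a lone promoter has only 1 gene, so the counts are in unlike units.

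The ratio of deposited strengths between the libraries was largest at 5 pairs. Amdhd1 and Ccdc38 had strengths of 0.796 in replicate 1 and 0.417 in replicate 2, a ratio of 1.91. Eif3k, of a translation initiation factor, and Map4k1 had 4.68 and 2.52. Asb7 and Lins1 had 4.52 and 2.51, Tbc1d10b and Mylpf 2.66 and 1.51, and Pld3 and 2310022A10Rik 4.26 and 2.43. All 5 were higher in replicate 1, as were 80.1% of pairs. The ratios are unscaled, and relative to the median ratio of 1.18 the order differs, since Sirt1 and Dnajc12, at 0.768 and 1.09, then lie further off than Amdhd1 and Ccdc38.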

How the data were processed

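DNase-seq of 1 tissue in 2 libraries was analysed from the processed files. Per the deposited notes, the authors called peaks separately in each library. A stricter and a broader list were used. The sources used here name no aligner or caller. Peak strength is the signal value deposited for each peak. The FDR values, a kind of q-value, are those in the authors' deposited table, which lists values under 0.05. Footprints are deposited intervals whose score column is constant.

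Genes were protein-coding genes of GENCODE M21 on 19 autosomes, and sequence was GRCm38.p6, the mm10 build of the files. A promoter had a peak where at least 1 bp overlapped. Hybrid alleles could not be separated. Means are over 2 libraries with the SD, intervals are 95% Wilson intervals, and no test was run. Members, gene lists and motifs were chosen with earlier results of these data known. Genes were named by rule: the 10 strongest pairs by the lower library, the 5 closest, 5 most distant, 5 with most footprints, 5 least alike between libraries, 5 closest without a peak, textbook pairs, and from each list the top 3 and lowest 1 (all neuronal pairs). A few pairs that the rule names are not reported here. Overlap and pairing were tested on simulated data. Computation used Python 3.11.15, pandas 2.3.3, SciPy 1.17.1 and pysam 0.24.0. Alternatives varied the peak list, overlap, flank, distance, CpG tercile, lone class and replicate.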

Additional observations from a re-analysis of the deposited data

How the results depend on the processing

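The share of pairs with a narrow peak (92.24%) and its excess over lone promoters (47.60 points) were 93.67% and 43.28 with the broader list, 90.48% and 53.44 with the strongest 50% of peaks, 91.56% and 50.08 by peak midpoint, 91.36% and 50.19 with 100 bp flanks, 92.72% and 45.92 with 500 bp flanks, and 90.24% and 45.60 in equal windows. They were 93.55% and 48.91 for starts up to 500 bp apart, 93.12% and 45.73 without predicted genes, 97.35% and 13.83 in the highest CpG tercile, 90.70% and 38.00 in the middle one, and 96.82% and 13.30 in equal windows of the highest. The excess was also 48.17 with 50 bp shared, 50.48 over lone promoters without any annotated opposite start, 43.49 without chemosensory genes and 14.74 over those with an opposite noncoding start. The strength ratio (1.426) was 1.576 with the broader list, 1.269 with the strongest peaks, 1.289 and 1.608 in the highest and middle terciles, 1.282 in equal windows of the highest, and 1.250 over promoters with an opposite noncoding start. It stayed above 1 under each alternative run.

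The footprint density ratio (1.055) turned round with the strongest peaks (0.9808), 100 bp flanks (0.9602) and the noncoding class (0.9579); the cause was not tested. It was 1.140 with the broader list, 1.026 by midpoint, 1.110 with 500 bp flanks, 1.204 in equal windows, 1.104 up to 500 bp apart, 1.015 and 1.111 in the highest and middle terciles, and 1.129 in equal windows of the highest. One peak over both starts (63.64%) was 68.75% up to 500 bp apart, 73.76% and 48.90% in the highest and middle terciles, and 64.97% with peaks at most 20 bp apart joined. The share with a peak in both libraries (91.43%) was 89.17% in equal windows, 97.11% and 89.04% in the highest and middle terciles, and 96.45% in equal windows of the highest. With 1 library left out, the ranges were 92.11% to 92.38%, 47.60 to 47.61 points, 1.378 to 1.474, 1.045 to 1.064, and 63.07% to 64.21%. Joining, equal windows with CpG, and the noncoding class were chosen after seeing the data. No paired analysis was possible because there is 1 group. One peak over both starts has no value in equal windows, nor has the share in both libraries with 1 left out. The SD over 2 libraries is a rough estimate, and unknown depth limits what an absent peak shows.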

Other observations

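At 12 pairs a narrow peak was present in 1 library only, 5 in replicate 1 and 7 in replicate 2, with strengths from 0.898 to 1.81, and in 11 of them the broader list had a peak in the other library. They include, chosen after their values were seen, Nr2e1, a nuclear receptor of neural stem cells, with Ostm1 (1.13, replicate 2 only), the kainate receptor subunit gene Grik5 with Zfp574 (0.991, replicate 2 only), and the recombination gene Rad54l with Pomgnt1 (1.34, replicate 1 only). At 9 further pairs the broader list alone had a peak, among them Plgrkt and Cd274, the checkpoint ligand gene PD-L1, and Il17rb and Chdh.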
